A study of Mus musculus with 6 samples.

Results

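Cytochrome P450 enzymes are haem proteins that insert 1 oxygen atom into their substrates. Most of them sit in the endoplasmic reticulum, where they draw electrons from P450 reductase. Families 1 to 3 oxidise drugs, toxins, steroids and fatty acids, and family 4 mainly hydroxylates fatty acids and eicosanoids. In the kidney they are found chiefly in the proximal tubule, where some of them turn arachidonic acid into mediators of salt transport and vascular tone. The genes described here are those of families 1 to 4 whose names in the scanner file match the pattern of a family number, a subfamily letter and a gene number, without the Cyp4a genes. They are 71 of the gene names on the array, with 96 probes, of which 94 remained after outlier flags. Of the 71 genes, 43 were bright enough to test and 28 were not.

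Gene expression was measured with one-colour arrays in the renal cortex of male mice aged 16 weeks, with 3 arrays per group and 1 mouse per array. In the labels one group is db/m and the other db/db. In the paper the arrays are of C57BLKS/J db/db mice, either non-treated or treated with Huangqi decoction (HQD), a herbal extract, by gavage for 8 weeks. Neither source says which label stands for the treated mice. The names of the labels are kept here with the word labelled before them, and every difference subtracts the labelled db/db value from the labelled db/m value. A db/db mouse carries 2 mutant copies of the leptin receptor gene Lepr and becomes obese and diabetic, while a db/m mouse carries a single one. Which of the study's HQD doses the treated mice had is not given in the sources used here. Values are log2 signals relative to the 75th percentile of the array, and a probe was tested if the scanner software had called it well above background throughout labelled db/m or throughout labelled db/db. The share of probes above background ranged from 51.6% to 59.0% per array. The arrays lay on 3 slides, and 1 of them held both groups, namely replicate 1 of labelled db/m beside replicate 3 of labelled db/db, while each of the others held 2 arrays of 1 group. Outside that pair, slide and group cannot be told apart.

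Of the 43 P450 genes tested, 18 were lower at an unadjusted limma p under 0.05 (called lower below) and 0 were higher, and 34 had a negative difference. The 18 genes were 7 of 9 in the Cyp2d subfamily, all 3 tested in Cyp2a, 3 of 9 in Cyp2c, 2 of 6 in Cyp2j, and Cyp2e1, Cyp2f2 and Cyp4b1. Their share was 41.9%, where 10.8% of all 29890 tested probes were lower and 6.9% were higher. The groups did not overlap for 22 of the 43 genes, with labelled db/m the lower group each time, against 24.1% of all probes in either direction and 16.4% with labelled db/m lower. The median difference of the P450 genes was -0.30 on the log2 scale, and that of all tested probes was -0.03.

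No P450 gene passed a Benjamini-Hochberg adjusted p under 0.05 (limma), and 0% of all tested probes did. The smallest adjusted p among the P450 genes was 0.24. Past a log2 difference of 1 in either direction with an unadjusted p under 0.05, 1 P450 gene (Cyp2a22) was lower and 0 were higher, while 0.177% of all probes were lower and 0.783% were higher. With 3 arrays against 3, an exact two-sided permutation test cannot give a p below 0.1 for any gene.

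The difference also moved with the signal over all probes. In the brightest quartile of the tested probes 15.1% were lower and 1.85% higher, with a median of -0.14, whereas in the dimmest quartile the median was 0.16. The brightest quartile held 18 of the 43 P450 genes, of which 10 (55.6%) were called lower, and their median difference was -0.48. The dimmest quartile held 6, of which 0 were called in either direction, and their median was 0.30. The part of the signal in the P450 differences was not tested.

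**Figure D1:**
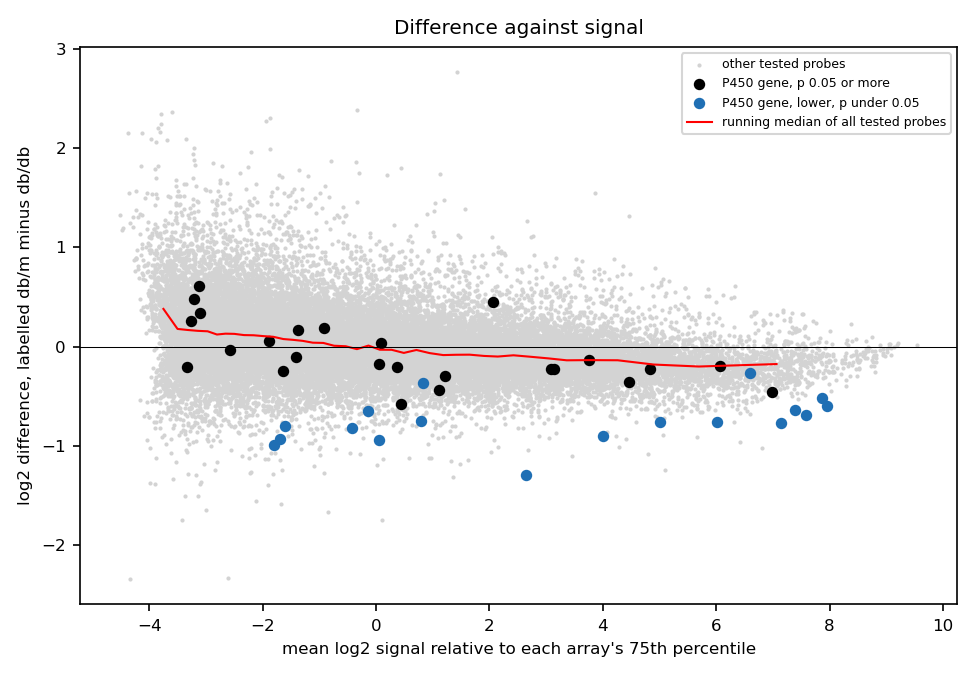
Log2 difference of labelled db/m minus labelled db/db (vertical axis) against the mean log2 signal relative to the 75th percentile of each array (horizontal axis), with all tested probes in grey and the 43 P450 genes in black or, where called lower, in blue. The running median of all probes slopes from above 0 at the dim end to below 0 at the bright end, and the 18 blue points lie below it.

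The Cyp2d genes form a cluster on chromosome 15, where their probes span 420 kb of mm9, from 82201687 to 82621829. In the mouse the subfamily has many active members, and it includes Cyp2d9, a testosterone hydroxylase known from male liver. Cyp2d12 (NM_201360, 82388259 to 82388501, positions that span more than the 60 bases of the probe) had signals of 4.65, 4.82 and 4.40 in labelled db/m and of 5.54, 5.40 and 5.21 in labelled db/db. Its groups did not overlap, and the difference was -0.76 (SE 0.15, limma adjusted p = 0.24). It had the smallest unadjusted p of the 43 genes, 0.00168. Cyp2d9 (NM_010006, 82285582 to 82285641) had 3.86, 3.47 and 3.31 in labelled db/m and 4.74, 4.51 and 4.09 in labelled db/db. Its difference of -0.90 (SE 0.22, limma adjusted p = 0.24) was the widest in the subfamily by the brightest probe of each gene, a 1.87-fold lower signal. On the slide that held both groups its difference was -0.23.

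Cyp2d10 (82233388 to 82233447) had 5.69, 5.82 and 5.38 in labelled db/m and 6.65, 6.35 and 6.18 in labelled db/db, with a difference of -0.77 (SE 0.17). Cyp2d11 (82219647 to 82219706) had 6.88, 6.86 and 6.53 against 7.78, 7.57 and 7.23, with a difference of -0.77 (SE 0.18). In both, every labelled db/m array was below every labelled db/db array. Cyp2d34 had -0.68, -0.56 and -1.24 against 0.25, 0.03 and -0.32, with a difference of -0.82 (SE 0.23). Cyp2d22, at one end of the cluster, had -0.53, -0.22 and -0.67 against 0.32, 0.05 and 0.15, with a difference of -0.65 (SE 0.15). Cyp2d26, at the other end, was measured by a pair of probes with differences of the same sign, -0.51 (SE 0.14) for the brighter and -0.83 (SE 0.16) for the dimmer. The brighter had 7.53, 7.83 and 7.48 in labelled db/m and 8.27, 8.12 and 8.00 in labelled db/db, and neither probe's groups overlapped. These 5 genes had limma adjusted p-values of 0.24 each. On the shared slide the differences were -0.56 for Cyp2d12, -0.50 for Cyp2d10, -0.35 for Cyp2d11, -0.36 for Cyp2d34, -0.69 for Cyp2d22 and -0.47 for Cyp2d26, and with slide as a fixed block none of the 7 genes was called.

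The remaining Cyp2d genes lay in the same cluster and were not called. Cyp2d40 had -1.47, -1.90 and -2.18 in labelled db/m and -1.84, -2.02 and -1.87 in labelled db/db, with a difference of 0.06 and a 95% interval from -0.39 to 0.51. The brighter probe of Cyp2d13, listed as a non-coding transcript, gave -0.04 (95% interval -0.75 to 0.68). A dimmer probe under the same name gave 1.37 (SE 0.57, limma adjusted p = 0.281), but it was above background on only 1 array labelled db/db, where its values were -3.99, -5.17 and -2.66 against -2.45, -2.63 and -2.63 in labelled db/m. The 2 probes of Cyp2d13 therefore disagreed. Within the Cyp2d span and 500 kb on each side, 42 probes of other genes were tested, of which 12 were lower and 3 higher, with a median of -0.16. Over all tested probes 10.8% were lower and 6.9% higher, so lower probes were more frequent around Cyp2d than over all probes. The part of these neighbours in the Cyp2d differences was not tested.

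**Figure D2:**
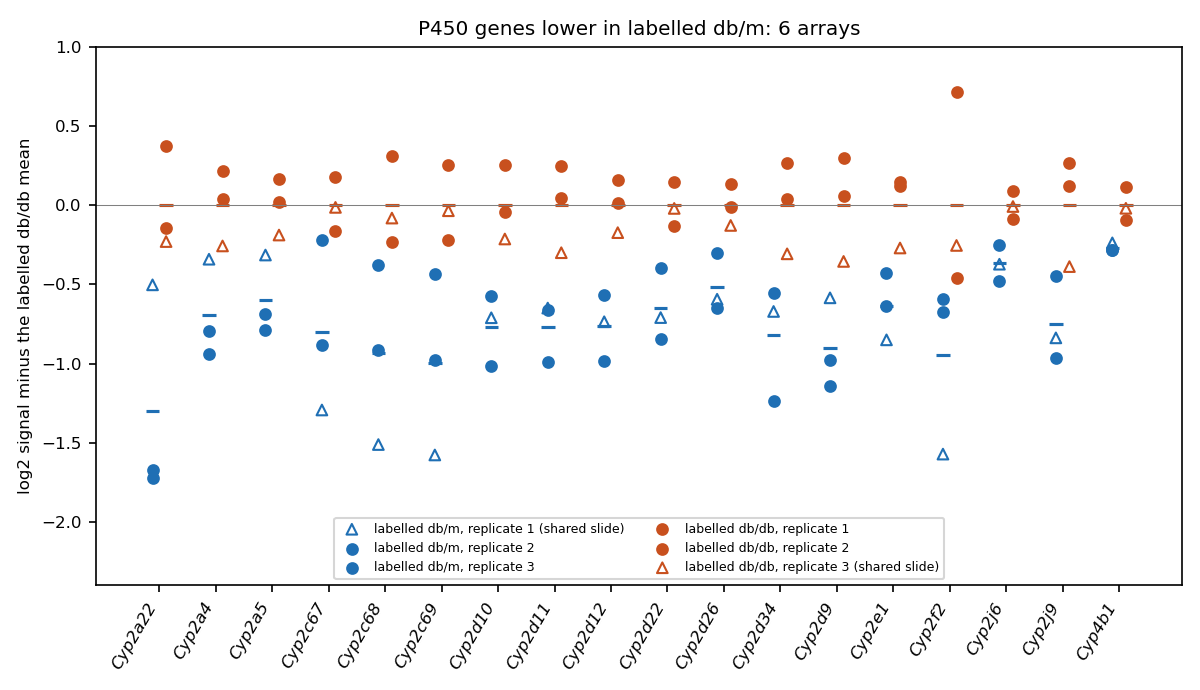
Signal of each of the 6 arrays for the 18 P450 genes called lower, on the log2 scale and relative to the labelled db/db mean of the gene, with short lines at the group means. Triangles mark the 2 arrays on the shared slide. In each of the 18 genes the labelled db/m points lie below the labelled db/db points, and for the Cyp2a genes the triangles lie close together.

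The Cyp2d mRNAs resemble one another, so a probe may bind more than its own target. To show how far the probes differ, 30-base stretches of the 60-base probes are given 5′ to 3′ as they lie on the arrays. Capitals mark the longest run shared by the probes of the pair. The probes of Cyp2d9 and Cyp2d34 shared 17 bases and those of Cyp2d10 and Cyp2d11 shared 11, so that no pair of Cyp2d probes had the same sequence. Around their run the stretches of Cyp2d10 and Cyp2d11 also agree at most bases. How far a probe matches the mRNA of another gene was not tested.
Cyp2d9: GCCATACTGGATAACCTgttgactgagaat
Cyp2d34: agaccttcatgGCCATACTGGATAACCTag
Cyp2d10: cagtgcccaATGGACAGCCCaggcctagaa
Cyp2d11: cagtgcctgATGGACAGCCCcagcccagca

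The promoters of the cluster are also alike. RefSeq promoters (GRCm38.p6) were at hand for Cyp2d9, Cyp2d10, Cyp2d11 and Cyp2d26 among the Cyp2d genes called lower. Over the 250 bases before the start, Cyp2d9 and Cyp2d11 had 87.6% of the bases in common in a global alignment, Cyp2d9 and Cyp2d10 83.6%, and Cyp2d9 and Cyp2d26, which was also called lower, 56.8%. The promoters of Cyp2d9 (chr15:82452127-82452376, plus strand) and Cyp2d11 (chr15:82394023-82394272, minus strand) are printed 5′ to 3′ on the gene's strand, with the longest shared run, 47 bases, in capitals.
Cyp2d9: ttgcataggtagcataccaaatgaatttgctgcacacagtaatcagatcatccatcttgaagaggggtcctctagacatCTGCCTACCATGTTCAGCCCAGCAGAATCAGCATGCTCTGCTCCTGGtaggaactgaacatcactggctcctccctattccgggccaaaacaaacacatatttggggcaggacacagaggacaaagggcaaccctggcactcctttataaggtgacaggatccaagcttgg
Cyp2d11: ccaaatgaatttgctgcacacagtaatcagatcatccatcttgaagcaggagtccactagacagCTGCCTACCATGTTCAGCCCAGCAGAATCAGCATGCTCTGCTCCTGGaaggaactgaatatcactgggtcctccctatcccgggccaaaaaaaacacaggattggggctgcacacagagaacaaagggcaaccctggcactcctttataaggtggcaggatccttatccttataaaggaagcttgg

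By the brightest probe of each gene, the widest difference was in the Cyp2a subfamily. Their products hydroxylate testosterone (Cyp2a4) and coumarin (Cyp2a5), and the genes lie on chromosome 7. Cyp2a22 (NM_001101467, 27722746 to 27722805 of mm9) had 2.79, 1.57 and 1.61 in labelled db/m and 3.66, 3.15 and 3.06 in labelled db/db. The groups did not overlap, the difference was -1.30 (SE 0.35, limma adjusted p = 0.24), and the signal was 2.46-fold lower. Replicate 1 of labelled db/m stood well above the other 2 arrays of its group. Cyp2a4 (27099880 to 27099939) had 7.58, 7.13 and 6.98 against 8.13, 7.96 and 7.66, with a difference of -0.69 (SE 0.20). Cyp2a5 (27628169 to 27628228) had 7.94, 7.57 and 7.47 against 8.42, 8.28 and 8.07, with a difference of -0.60 (SE 0.17). In these 2 genes as well, replicate 1 was the highest array of labelled db/m and lay within 0.13 of labelled db/db replicate 3 on the same slide.

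On the shared slide the differences of the Cyp2a genes were therefore small, -0.27 for Cyp2a22, -0.08 for Cyp2a4 and -0.13 for Cyp2a5. With slide as a fixed block, which rests on that pair of arrays, none of the 3 was called, and without labelled db/m replicate 1 the differences were -1.70, -0.86 and -0.74. Cyp2a5 was also not called after quantile normalization, at -0.43. With cyclic loess, chosen after seeing the data, neither Cyp2a4 (-0.47) nor Cyp2a5 (-0.37) was called. Cyp2a12, the fourth gene of the subfamily on the array, was above background on a single array and not tested.

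Cyp2a4 and Cyp2a5 are near-identical copies, and the share of each in the other's signal was not tested. Their probes lie in different parts of the transcripts, and the longest run shared by any 2 of the Cyp2a probes was 6 bases. Bases 16 to 45 of the probes are printed to show this, in lower case since they share no longer run.
Cyp2a4: tcccgttgatcctgggctgcatgaggttaa
Cyp2a5: cttgcagaggatatttcaaaggtagccaaa
Cyp2a22: agttcctgtcactgctgcagatgatgagtc
The promoters of Cyp2a4 (chr7:26306942-26307191) and Cyp2a5 (chr7:26835089-26835338, both GRCm38.p6, plus strand) had 98% of their 250 bases in common, while that of Cyp2a22 shared 54.8% with Cyp2a4. They are printed with the longest common run, 111 bases, in capitals.
Cyp2a4: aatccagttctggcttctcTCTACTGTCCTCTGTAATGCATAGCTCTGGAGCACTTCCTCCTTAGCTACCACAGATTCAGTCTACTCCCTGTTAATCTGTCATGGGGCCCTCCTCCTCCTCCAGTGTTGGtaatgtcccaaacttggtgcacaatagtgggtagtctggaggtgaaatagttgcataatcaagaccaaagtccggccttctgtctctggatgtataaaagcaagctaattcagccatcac
Cyp2a5: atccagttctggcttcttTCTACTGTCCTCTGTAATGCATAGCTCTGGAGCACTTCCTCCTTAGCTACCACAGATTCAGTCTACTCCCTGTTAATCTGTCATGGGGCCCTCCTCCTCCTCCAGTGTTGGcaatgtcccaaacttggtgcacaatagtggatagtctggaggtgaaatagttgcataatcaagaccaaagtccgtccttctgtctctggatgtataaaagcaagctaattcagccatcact

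In the Cyp2c subfamily, which includes epoxygenases of arachidonic acid, the lower genes were neighbours on chromosome 19. Cyp2c67 (39683429 to 39683488 of mm9) had -2.49, -1.42 and -2.08 in labelled db/m and -1.36, -1.02 and -1.21 in labelled db/db, with a difference of -0.80 (SE 0.27, limma adjusted p = 0.245). Cyp2c68 (39763420 to 39763479) had -2.74, -1.61 and -2.15 against -1.46, -0.92 and -1.31, with a difference of -0.94 (SE 0.30, limma adjusted p = 0.24). Cyp2c69 (39917304 to 39917363) had -2.88, -1.73 and -2.28 against -1.52, -1.05 and -1.34, with a difference of -0.99 (SE 0.29, limma adjusted p = 0.24). The 3 genes followed each other from array to array, with labelled db/m replicate 1 the lowest each time, and the groups came close but did not overlap. Unlike the Cyp2a genes, they differed more on the shared slide, by -1.28, -1.43 and -1.54, and all 3 were called with slide as a fixed block. The call of Cyp2c67 was lost without labelled db/m replicate 1 (-0.55), labelled db/m replicate 3 (-0.76) or labelled db/db replicate 2 (-0.71), and that of Cyp2c68 without the last of these (-0.78). None of the 3 was called by an ordinary equal-variance test. The paper names no test for its arrays in particular.

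The probes of Cyp2c67 and Cyp2c68 shared a run of 25 bases, the longest between any 2 of the 43 genes, so their signals are not separate measurements to that extent. The run is in capitals in the stretches of the probes below, and around it the stretches of Cyp2c67 and Cyp2c68 also agree at most bases. Cyp2c69's probe shared 8 bases with each of them, shown in its stretch. How far these probes match the mRNA of another Cyp2c gene was not tested.
Cyp2c67: gaAATTCCATCTATATTCCTTCTTATCcca
Cyp2c68: ggAATTCCATCTATATTCCTTCTTATCaca
Cyp2c69: aagatgaggaaAGCTTCTGctatgctgttt
The promoters of the 3 genes each held the letters CAAAGTCCA, a site of the hepatocyte nuclear factor HNF4, which stand in 0.384% of all 32851 RefSeq promoters over the same 250 bases on either strand. Among the 15 genes called lower that had a promoter in the table, these 3 held it, and among the 21 others that were tested, 1 did (Cyp2c70). The remaining 5 members with the letters, Cyp2c40, Cyp2c65, Cyp3a11, Cyp3a16 and Cyp3a41a, were too dim to test. The 3 promoters are themselves alike, with 92.8% of the bases in common between Cyp2c68 and Cyp2c69, 75.2% between Cyp2c67 and Cyp2c68 and 74.4% between Cyp2c67 and Cyp2c69, so the 3 matches are not separate occurrences. A match is a description of the letters, not of binding. The promoters (chr19:39649043-39649292, chr19:39741102-39741351 and chr19:39886770-39887019 of GRCm38.p6, all on the minus strand) are printed with the match in capitals.
Cyp2c67: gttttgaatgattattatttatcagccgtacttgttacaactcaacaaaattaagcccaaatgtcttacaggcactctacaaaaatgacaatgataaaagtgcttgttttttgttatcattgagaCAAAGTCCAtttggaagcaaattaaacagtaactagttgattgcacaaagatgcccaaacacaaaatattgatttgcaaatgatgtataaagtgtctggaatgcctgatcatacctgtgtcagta
Cyp2c68: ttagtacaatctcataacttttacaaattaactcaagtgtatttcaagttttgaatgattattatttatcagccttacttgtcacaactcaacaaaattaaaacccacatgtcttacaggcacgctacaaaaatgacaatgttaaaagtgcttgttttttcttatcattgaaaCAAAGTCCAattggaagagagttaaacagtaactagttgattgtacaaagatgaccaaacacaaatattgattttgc
Cyp2c69: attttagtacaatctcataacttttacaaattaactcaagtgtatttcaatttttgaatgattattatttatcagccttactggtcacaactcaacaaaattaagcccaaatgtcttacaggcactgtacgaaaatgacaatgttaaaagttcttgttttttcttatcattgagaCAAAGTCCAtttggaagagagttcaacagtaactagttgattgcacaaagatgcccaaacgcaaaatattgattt

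The nuclear receptor half-site AGGTCA was in 14% of all promoters and in 1 of the 15 genes called lower (Cyp2f2), against 4 of the 21 others. The core GCGTG, to which the aryl hydrocarbon receptor binds, was in 28.2% of all promoters, in 2 of the 15 (Cyp2c68 and Cyp2j9) and in 7 of the 21. The letters were searched on both strands over the 250 bases, and none of the motifs lies within another.

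Other Cyp2c genes were not called. Cyp2c44, an epoxygenase that RefSeq names Cyp2c23, had 4.52, 4.11 and 4.20 in labelled db/m and 4.84, 4.53 and 4.53 in labelled db/db, with a difference of -0.36 (SE 0.16, limma adjusted p = 0.292). A second, dimmer probe of the gene gave -0.52 (SE 0.17) with an unadjusted p of 0.0167, so that its probes had the same sign but only the dimmer one was past the threshold. Cyp2c37 was among the 3 genes with the largest positive differences, at 0.48 (95% interval -0.42 to 1.37), and its probe was dim, with 4 arrays above background. These were 3 of labelled db/m and 1 of labelled db/db, so the gene was tested only through labelled db/m. Its sign turned on the shared slide, where the difference was -0.79. The others were Cyp2c55 at -0.58, Cyp2c70, which hydroxylates bile acids, at -0.21, Cyp2c29 at -0.18 and Cyp2c38 at 0.16. Cyp2c39, Cyp2c40, Cyp2c50, Cyp2c54, Cyp2c65 and Cyp2c66 were not tested.

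The Cyp2j genes encode epoxygenases and hydroxylases of arachidonic acid, of which Cyp2j5 is known from the proximal tubule of the mouse. By the brightest probe of each gene, all 6 differences were negative, from -0.75 to -0.13, and 2 were called. Cyp2j9 had 0.34, 0.73 and 0.21 in labelled db/m and 1.44, 1.29 and 0.79 in labelled db/db, with a difference of -0.75 (SE 0.22, limma adjusted p = 0.24). Cyp2j6 had 0.64, 0.76 and 0.53 against 0.92, 1.1 and 1.0, with a difference of -0.37 (SE 0.11, limma adjusted p = 0.24), while its dimmer probe gave -0.20. For both genes the groups did not overlap, but Cyp2j6 was not called without labelled db/m replicate 3 (-0.31) or labelled db/db replicate 2 (-0.32). Cyp2j5 had 5.83, 6.21 and 5.89 in labelled db/m and 6.07, 6.28 and 6.17 in labelled db/db, and its difference of -0.20 had a 95% interval from -0.53 to 0.13. A second Cyp2j5 probe gave 0.26, with a limma adjusted p of 0.487. Cyp2j8, Cyp2j11 and Cyp2j13 gave -0.22, -0.23 and -0.13, and the dimmer Cyp2j13 probes gave -0.43 and 0.20.

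The Cyp2j cluster lies on chromosome 4, where its last probe ends 5.09 Mb before the first probe of Lepr, the gene at which the labelled genotypes differ. Within 500 kb of the cluster, 4 of 9 further probes were called lower and 0 higher, with a median of -0.35, where 10.8% of all tested probes were lower. Those 9 probes belong to only 3 genes. Around Cyp2d, 12 of 42 further probes were lower and 3 higher, and around Cyp2a 4 of 31 were lower and 0 higher. Around Cyp2c, 10 of 80 were lower and 5 higher, and around Cyp4f 2 of 32 were lower and 2 higher. Whether a haplotype linked to Lepr has a part in these values was not tested.

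Cyp2e1 and Cyp2f2 are the single members of their subfamilies. Cyp2e1, which oxidises ethanol, acetone and other small molecules, had 6.85, 7.27 and 7.06 in labelled db/m and 7.82, 7.85 and 7.43 in labelled db/db. Its difference was -0.64 (SE 0.17, limma adjusted p = 0.24), and a second probe nearer the start of the gene gave -0.67 (SE 0.15). Neither probe's groups overlapped, the shared slide gave -0.58 and -0.60, and the brighter probe was called under all 20 alternatives. Cyp2f2, known for the activation of naphthalene in the airways, had -1.05, -0.07 and -0.15 against 0.06, 1.24 and 0.27, with a difference of -0.94 (SE 0.38, limma adjusted p = 0.275). Its groups were separated by a narrow gap and 8 of the alternatives lost the call, among them leaving out labelled db/m replicate 1 (-0.63) or 3 (-1.08), or labelled db/db replicate 2 (-0.59) or 3 (-1.07).

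The family 1 genes, which the aryl hydrocarbon receptor induces, did not pass the threshold. Cyp1a1 had -2.70, -2.96 and -3.14 in labelled db/m and -3.32, -3.04 and -3.47 in labelled db/db. Its groups overlapped, and the difference was 0.34 (95% interval -0.05 to 0.74, limma adjusted p = 0.32). Cyp1b1, which oxidises oestrogens and retinoids, had 0.47, 1.05 and 1.12 against 1.47, 1.40 and 1.1. The difference was -0.44 (95% interval -0.93 to 0.04, limma adjusted p = 0.304), and its groups also overlapped. On the shared slide the values were 0.76 for Cyp1a1 and -0.63 for Cyp1b1, and both were then past the unadjusted threshold. Cyp1a1 was also past it without labelled db/db replicate 2 (0.46), and Cyp1b1 without labelled db/m replicate 3 (-0.56) or labelled db/db replicate 3 (-0.55). Cyp1a2 was too dim on all 6 arrays. Of the other genes that the aryl hydrocarbon receptor induces, 4 of 5 were tested and 0 were called, with a median of -0.06.

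The remaining genes of family 2 with 1 member each were not called by their brightest probe. Cyp2w1 had the largest positive difference of the 43 genes, 0.61 (95% interval -0.03 to 1.25), with -3.13, -2.71 and -2.60 in labelled db/m and -3.80, -3.60 and -2.86 in labelled db/db. Its probe was above background on 3 arrays of labelled db/m and 2 of labelled db/db. The gene was therefore tested only through labelled db/m, the group where it was higher. Its other probe was above background on no array and not tested. Cyp2r1, a vitamin D hydroxylase, gave 0.45 (95% interval -0.31 to 1.21), where labelled db/db replicate 3 at 2.59 was above every labelled db/m array and the other labelled db/db arrays, at 1.31 and 1.61, were below them. Without that replicate both were past the unadjusted threshold, at 0.89 for Cyp2w1 and 0.83 for Cyp2r1, while on the shared slide they were -0.27 and -0.45. With that replicate left out, 11.2% of all probes were higher and 13.0% lower. Cyp2t4 gave 0.26, and Cyp2s1 gave -0.23 with groups that did not overlap. The probes of Cyp2u1, a fatty acid hydroxylase, disagreed. Its brightest gave -0.45 (limma adjusted p = 0.37), another gave 0.52 (SE 0.19, limma adjusted p = 0.261, unadjusted p = 0.0324) and the one that matches the RefSeq mRNA gave 0.08.

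**Figure D3:**
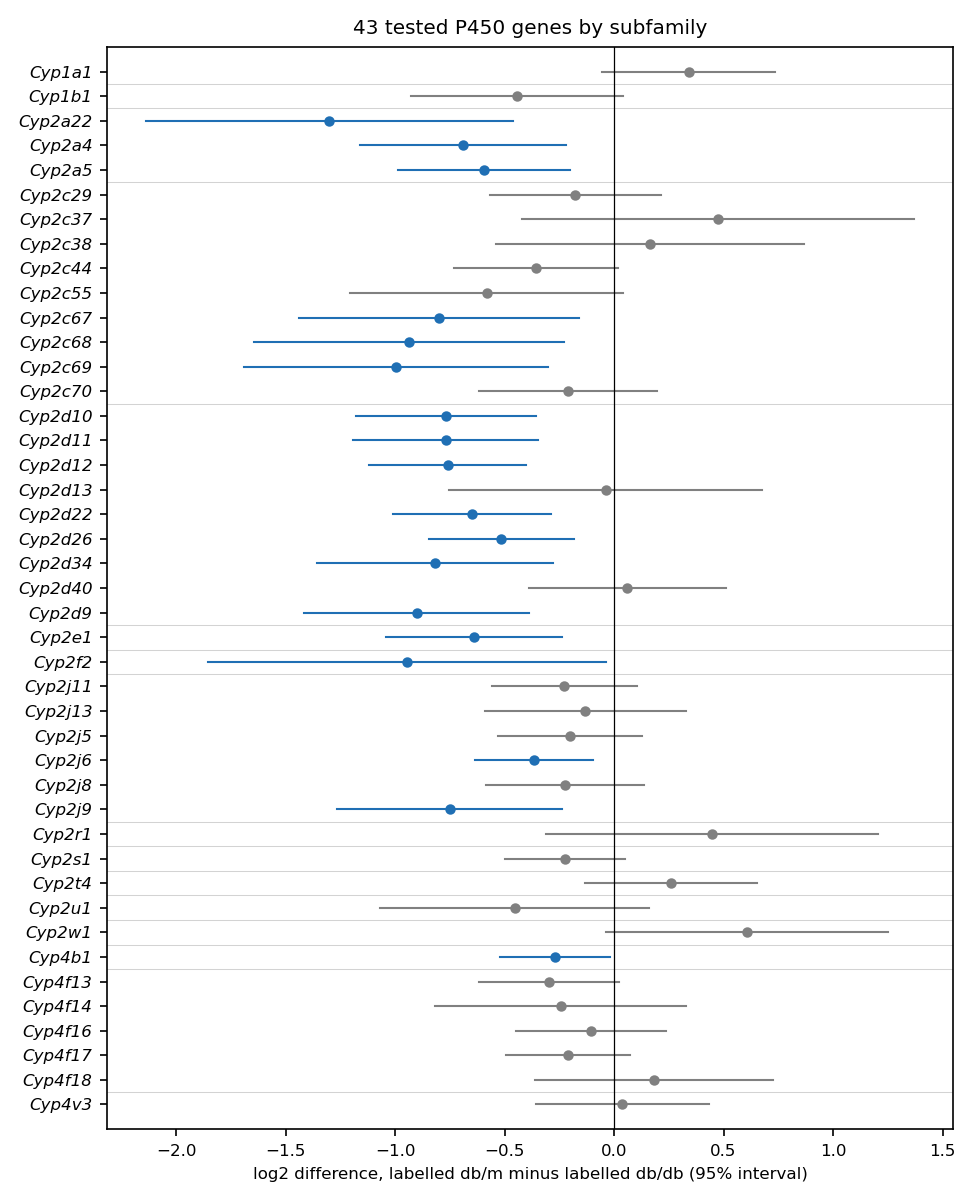
Log2 difference of labelled db/m minus labelled db/db for the 43 tested P450 genes (points) with 95% limma intervals (lines), ordered by subfamily. Blue marks the 18 genes called lower, whose intervals lie below 0, and the intervals of the other genes include 0.

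In family 4, Cyp4b1 was called lower and the Cyp4f genes were not. Cyp4b1, which oxidises fatty acids and some plant toxins, had 6.49, 6.44 and 6.44 in labelled db/m and 6.84, 6.63 and 6.71 in labelled db/db. The difference was -0.27 (SE 0.11, limma adjusted p = 0.27) and the groups did not overlap. After quantile normalization it was -0.062, and 10 of 20 alternatives lost the call, among them leaving out any 1 of the 5 arrays other than labelled db/db replicate 2. The 5 tested Cyp4f genes, whose subfamily hydroxylates leukotrienes and long-chain fatty acids, gave -0.30 (Cyp4f13), -0.24 (Cyp4f14), -0.21 (Cyp4f17), -0.11 (Cyp4f16) and 0.18 (Cyp4f18). A dimmer Cyp4f13 probe gave 0.04, so the probes of that gene differed in sign. The dimmer Cyp4f16 probe gave -0.61 (SE 0.12, unadjusted p = 0.00178, limma adjusted p = 0.24), so that the pair of probes differed in the call. That probe was above background on only 2 arrays labelled db/m against 3 labelled db/db. It was therefore tested only through labelled db/db, the group where it was higher. Cyp4v3 gave 0.04 (95% interval -0.36 to 0.43).

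Several subfamilies were not measurable in this tissue. None of the 8 Cyp3a genes and none of the 5 Cyp2b genes, both known as major drug-metabolising groups of the liver, was tested, and Cyp2ab1, Cyp2g1 and Cyp4x1 were too dim on all 6 arrays. Of the 28 genes not tested, 20 were called above background on no array and 8 on 1 to 3 arrays. Their differences were therefore not detectable at this signal.

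Genes that serve the P450 enzymes were taken from lists. Over all tested probes 10.8% were lower and 6.9% higher, and in the brightest quartile 15.1% and 1.85%. Among 6 tested electron transfer partners, 2 were lower and 0 higher, with a median of -0.25. Por, the P450 reductase, had 5.84, 6.26 and 5.93 in labelled db/m and 6.31, 6.42 and 6.43 in labelled db/db, with a difference of -0.38 (SE 0.14, limma adjusted p = 0.258). Pgrmc1, a haem protein that binds P450 enzymes, had a difference of -0.43 (SE 0.11, limma adjusted p = 0.24). In both the groups did not overlap, and the shared slide gave -0.58 and -0.48. Of 12 genes of haem synthesis and breakdown, 6 were lower and 0 higher, with a median of -0.28. Among them were the synthesis enzymes Alad (-0.43), Fech (-0.36), Urod (-0.30) and Ppox (-0.26) and the biliverdin reductase Blvra (-0.37). Alas1, whose enzyme sets the rate of haem synthesis, gave -0.31 with overlapping groups.

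Over all tested probes 10.8% were lower and 6.9% higher. Among 17 tested receptors and transcription factors that act on P450 genes, 2 were lower, close to that share, and 0 higher. The median was -0.08. Of the 2, Nr1i2, the pregnane X receptor, gave -0.32 (SE 0.12, limma adjusted p = 0.256). Hnf4a gave -0.19 with overlapping groups. Of 13 tested glucuronosyltransferases, which conjugate the products of P450 enzymes, 5 were lower and 0 higher, with a median of -0.13. These were Ugt1a10 (-0.70), Ugt2b34 (-0.62), Ugt1a6b (-0.33), Ugt3a1 (-0.33) and Ugt3a2 (-0.31), where the Ugt1a genes share exons and cannot be fully told apart. Among 5 flavin monooxygenases Fmo4 was lower (-0.43), and among 9 epoxide hydrolases and eicosanoid enzymes Ephx1, the microsomal epoxide hydrolase, was higher (0.41, SE 0.14, limma adjusted p = 0.248) and 0 were lower.

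**Figure D4:**
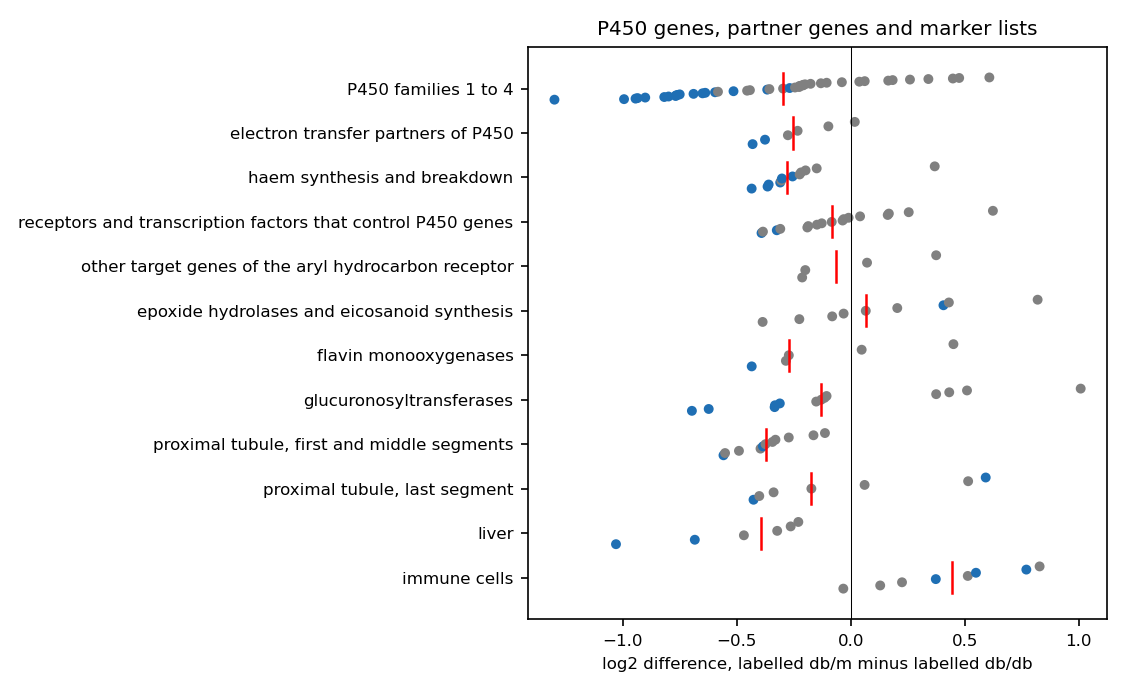
Log2 differences of labelled db/m minus labelled db/db for the tested genes of the P450 families, their partner lists and 4 marker lists, with blue points where the unadjusted p is under 0.05 and red lines at the medians. The medians are -0.30 for the P450 genes, -0.28 for haem genes, -0.37 for the first and middle proximal tubule and 0.44 for immune cells.

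Markers of the proximal tubule, a main site of these enzymes in the kidney, were compared in the same way. Their counts stand beside 10.8% lower and 6.9% higher over all tested probes. All 11 tested markers of the first and middle proximal tubule had negative differences, with a median of -0.37. Of these, 2 were called lower, namely the transporters Slc22a8 (-0.56) and Slc13a1 (-0.39), and 0 were called higher. Their summed signal ranged from 9.34 to 10.21 in labelled db/m and from 10.02 to 10.27 in labelled db/db, so that the groups overlapped. Of 7 markers of the last segment, 4 had negative differences, and Slc3a1 was called lower (-0.43) and Atp11a higher (0.59). In whole cortex, fewer cells of a type and less RNA per cell cannot be told apart, and the part of the tubule markers in the P450 differences was not tested.

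The counts of the further marker lists also stand beside 10.8% lower and 6.9% higher over all tested probes. Liver markers were examined because many P450 genes are liver genes. All 6 that were tested had negative differences, with a median of -0.40. Of these, 2 were called lower, namely the fibrinogen genes Fgb (-1.03) and Fga (-0.68), and 0 were higher, while Alb gave -0.26 with overlapping groups and Cps1 was too dim to test. Their summed signal ranged from 7.14 to 7.85 in labelled db/m and from 7.63 to 8.06 in labelled db/db. That sum was close to the signal of a single gene, Serpina1a. It had 7.78, 7.02 and 7.02 in labelled db/m and 7.99, 7.52 and 7.72 in labelled db/db, with overlapping groups. The liver-typical Cyp3a11 and Cyp2b10 were too dim on all 6 arrays. Of 8 immune cell markers 3 were higher, namely Lyz2 (0.77), Ptprc (0.55) and Adgre1 (0.37), and their summed signal ranged from 4.66 to 5.28 in labelled db/m and from 4.19 to 4.61 in labelled db/db. Of 5 tested androgen-responsive kidney genes only Gusb was lower (-0.33), and the median was -0.15. In the remaining marker lists, Slc12a3 of 3 distal convoluted tubule genes (-0.91) and Slc26a4 of 6 collecting duct genes (-0.53) were lower, Fabp4 of 5 tested adipose genes was higher (0.63), and 0 were called among 5 thick limb, 5 podocyte, 5 endothelial, 5 blood and 2 tested adrenal genes. The part of these lists in the P450 values was not tested.

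On the shared slide, where replicate 1 of labelled db/m and replicate 3 of labelled db/db can be set side by side, 37 of the 43 P450 genes had a negative difference, with a median of -0.36. The median of all tested probes over that pair of arrays was -0.04. In the Cyp2d genes 8 of 9 were negative with a median of -0.47, in Cyp2c 8 of 9 with -0.79, in Cyp2j 5 of 6 with -0.35 and in Cyp2a 3 of 3 with -0.13. With slide as a fixed block, 9 genes were lower and 1 higher, where 5.16% of all probes were lower and 4.55% higher. Of the 18 genes, 4 stayed called in that fit, Cyp2c67, Cyp2c68, Cyp2c69 and Cyp2e1, and all 18 kept a negative difference. That comparison has 1 array per group within the slide.

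**Figure D5:**
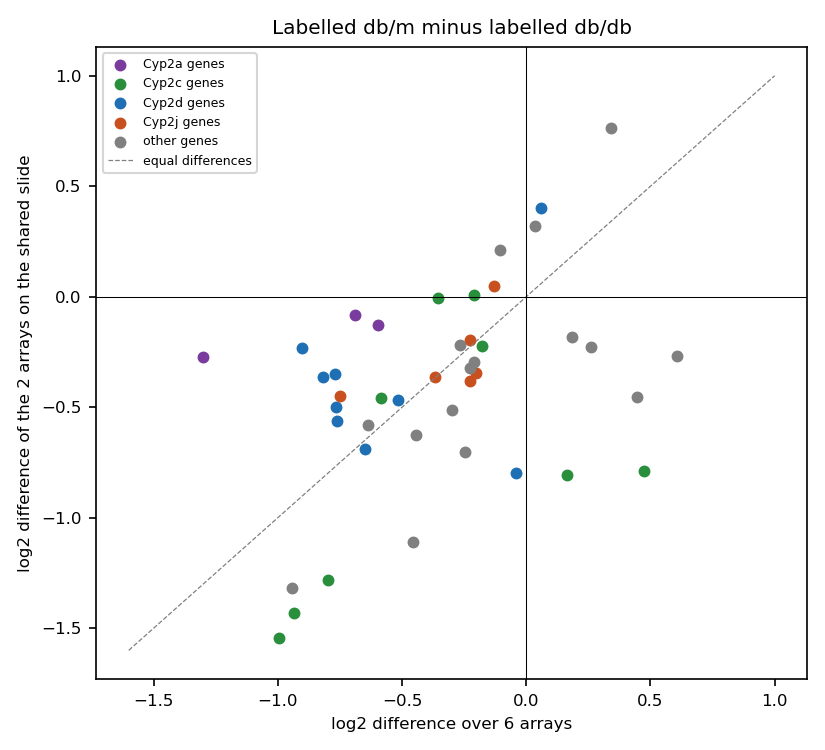
Log2 difference on the shared slide (vertical axis) against the difference over all 6 arrays (horizontal axis) for the 43 P450 genes, coloured by subfamily, with a dashed line of equal differences. The Cyp2c67, Cyp2c68 and Cyp2c69 points lie below the line, the Cyp2a points well above it, and most points are below 0 on both axes.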

How the data were processed

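RNA from the renal cortex of 6 male mice was hybridised to one-colour Agilent arrays. The authors deposited scanner files with the intensity of each spot from Agilent Feature Extraction 10.7.1.1 (per the labels), which subtracts the background and does not scale arrays to each other. A matrix of log2 values, likewise deposited, had columns that followed the log2 intensities (r from 0.998 to 1.000) and shared 1 set of sorted values, as quantile normalization leaves them. Its method is not given in the sources used here.

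The analysis used R 4.3.3 and limma 3.58.1. Spots that were controls or bore an outlier flag were dropped, replicate spots averaged, and log2 intensities expressed relative to the 75th percentile of their array. The 29890 probes called well above background throughout either group were tested with lmFit and eBayes, with Benjamini-Hochberg adjustment over all of them. The brightest tested probe stood for its gene. Groups were kept as labelled. The number of arrays limits the precision. The labels do not tie replicate numbers to each other across groups.

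The genes, lists, motifs and tests were chosen with earlier results of these data known. Genes were named where the unadjusted p was under 0.05, as the brightest of a subfamily, or among the 3 largest differences in each direction. Some genes that this covers are not reported here and stay in the counts. Other genes were added to complete a subfamily after their values were seen. Of the 94 probes, 85 matched RefSeq by accession, and 2 of those carry another symbol there (Cyp2c44, now Cyp2c23). Probe positions are those of the files, on mm9, and promoters are RefSeq's, on GRCm38.p6. The fitting procedure was tested on simulated data. The alternatives comprised median centring, quantile normalization, a normexp background (offset 50), the deposited matrix, no filter and a filter on all 6 arrays. Further ones were an ordinary equal-variance test, a trended robust variance, and slide and replicate blocks. The last were each array left out, the mean of a gene's probes and a floor for dim spots. Cyclic loess was added after seeing the data.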

Additional observations from a re-analysis of the deposited data

How the results depend on the processing

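The 18 calls kept a negative difference under all 20 alternatives, and no P450 gene passed the adjusted threshold under any of them. The number called lower ranged from 14 to 22 when 1 array was left out (14 without replicate 2 of labelled db/db) and fell to 9 with slide as a fixed block, which rests on 1 array per group. The number called higher ranged from 0 to 4 when 1 array was left out (4 without replicate 3 of labelled db/db), and it was 1 with slide as a fixed block, with slide as a random block and with the replicate block. With the replicate block 20 genes were lower, where 13.6% of all tested probes were lower and 8.35% higher. With slide as a random block 12.2% of all tested probes were lower and 8.03% higher. Same-numbered arrays deviated together with correlations of 0.35, 0.15 and 0.05, so the numbers were not taken as pairs. Leaving out 1 array gave between 4.06% and 13.7% of all tested probes lower, and between 3.63% and 11.2% higher. The 11.2% came from the same fit as the 4 higher genes, in which 13.0% of all probes were lower. That fit, and the one lacking replicate 1 of labelled db/m, had no slide with both groups. The median difference of the P450 genes ranged from -0.41 to -0.28 when 1 array was left out. It was -0.48 with median centring, which moved the median of all probes to -0.21, with 19.3% of them lower and 3.02% higher, and 24 P450 genes were then called lower.

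Signs turned for named genes that were not called. Cyp4v3 gave -0.15 with median centring and from -0.081 to 0.21 with single arrays left out, negative without labelled db/m replicate 1 or replicate 3. Cyp2t4 gave -0.032 with normexp. With slide as a fixed block Cyp2c37 gave -0.79, Cyp2r1 -0.45, Cyp2w1 -0.27 and Cyp2t4 -0.23. With the mean over a gene's probes, Cyp2j5 gave 0.031 and Cyp2u1 0.050, and 31 of the 43 genes had a negative difference. Of the 12 genes with several tested probes, 5 had probes that differed in sign. Calls of lower were gained without labelled db/m replicate 1 by Cyp2c44 (-0.48) and without labelled db/m replicate 2 by Cyp2u1 (-0.71), Cyp4f13 (-0.41) and Cyp2j5 (-0.32). The cause of these changes was not tested. With the equal-variance test 14 genes were lower and with cyclic loess 14, where 11.2% and 9.97% of all probes were lower. Dim probes limit the positive differences, since Cyp2c37 and Cyp2w1 were not above background on all arrays.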
